A study of Mus musculus with 11 samples.

Results

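The semaphorin, plexin, Slit and netrin guidance genes were examined in microarray profiles of the mouse neural tube taken below and above the point where it closes. The set holds 42 genes, chosen by name as ligands and receptors of 4 guidance systems: 16 semaphorins, 9 plexins, 2 neuropilins, 3 Slits, 3 Robos, netrin-1 with 6 receptors, and 2 Rgm ligands of neogenin. All 42 had a probe set assigned to that gene alone, of 18193 genes with such a probe set. Where a gene had several probe sets, the one with the highest mean over the 11 arrays was used, and 37 of the 42 genes passed the filter on low signal.

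Neuroepithelium of C57BL/6 mouse embryos was dissected at embryonic day (E) 8.5 and E9.5 and split at the junction between open and closed tissue. Total RNA was hybridised to Affymetrix Mouse Genome 430 2.0 arrays, each carrying material pooled by litter. There were 3 arrays of open neuroepithelium at E8.5, 2 of closed neural tube at E8.5, 3 of open neuroepithelium at E9.5 and 3 of closed neural tube at E9.5. A further closed E8.5 sample was removed by the submitters at quality assessment. All groups were untreated apart from a brief incubation of the dissected embryos in pancreatin and trypsin on ice, and the notochord stayed attached to the tissue. The incubation lasted 5 min at E8.5 and 8 min at E9.5, so that its length and the stage cannot be told apart. The closed segment lies rostral to the open one, so that closure and axial level cannot be told apart in these samples.

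Semaphorins bind plexins, and the secreted class 3 members mostly do so through the co-receptors neuropilin-1 and neuropilin-2. Slits act through Robo receptors. Netrin-1 attracts growing axons through DCC and repels them through the UNC5 receptors, while neogenin, a relative of DCC, also binds the Rgm proteins. In the spinal cord these systems are best known for steering commissural and motor axons, and semaphorin-neuropilin signals also steer migrating neural crest cells.

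All values are log2 signals as deposited, and the median array signal lay between 4.80 and 4.90. A gene was tested when its mean over the arrays was at least 4.30, the 40th percentile of all probe sets. Differences were tested with limma, and adjusted p-values are Benjamini-Hochberg values over all 13338 genes tested. Errors of differences are standard errors (SE) of that fit. A difference is called past the threshold at an adjusted p below 0.05. Sox2, a marker of neuroepithelium, had group means from 11.09 to 11.52 and was higher in closed tissue at E9.5 (0.43, SE 0.09, adjusted p 0.0117).

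Some libraries stood apart. For the control transcripts Gapdh and Actb, the mean of the 3′ minus 5′ signal was 2.20 and 2.48 in open E9.5 replicates 1 and 2, and 1.14 to 1.82 in the other 9 arrays. The summed signal of 10 somite markers was 687 in closed E8.5 replicate 2, against 291 in closed E8.5 replicate 1 and 246 to 278 in the other 9 arrays. Calls lost without these arrays are given beside each gene. Without closed E8.5 replicate 2, 1 closed array was left at E8.5, and the Sema5a difference at E8.5 was −0.999. The E9.5 differences of Sema5a (−0.79) and Plxna2 (0.84) were unchanged without either closed E8.5 array. Those arrays enter the E9.5 comparison only through the pooled spread. Without open E9.5 replicates 1 and 2, Slit2 differed by −0.66 between regions at E8.5 and by 1.04 between stages in closed tissue. Sema4a differed by −0.59 between stages in closed tissue. These differences were the same with all arrays, as the comparisons do not use the open E9.5 arrays. The part of RNA quality or of attached somite tissue in the guidance gene values was not tested.

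At E8.5, 13 of the 37 tested guidance genes differed between closed and open tissue, 10 higher and 3 lower in closed tissue. That is 35.1% of the tested guidance genes, against 7.17% of all genes tested (3.79% higher and 3.38% lower). At E9.5, 10 differed, 6 higher and 4 lower, or 27% against 8.54% of all genes (2.75% higher and 5.79% lower). The arrays of the regions did not overlap for 20 of the 37 genes at E8.5, against 27.5% of all genes, and for 20 at E9.5, against 22.5%. The 2 stages use different arrays. At both stages 8 genes passed, each in the same direction: Nrp1, Ntn1, Plxnc1, Slit1 and Rgma were higher in closed tissue, and Sema4d, Sema6a and Unc5b were lower. These 8 are 61.5% of the E8.5 calls and 80% of the E9.5 calls. Over all genes, 551 passed at both stages, which is 57.6% of the E8.5 calls and 48.4% of the E9.5 calls. The median difference over the 37 guidance genes was 0.06 at E8.5 and 0.10 at E9.5, against 0.00 and −0.01 over all genes. The lowest group mean of any gene called in any comparison was 4.51, for Sema4a, so that no called gene had a group mean below the filter.

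Same-numbered open and closed arrays of a stage deviated together, but the labels do not say that the numbers mark pairs. Counts under alternative settings are given without the share of all genes, so a rise is not shown to be particular to guidance genes. With the replicate number within a stage as a block, the count at E9.5 was 16 in place of 10. At E8.5 it was 15 in place of 13, with Sema3e (−0.64, adjusted p 0.0302) and Slit2 (−0.69, adjusted p 0.0352) added. The genes added at E9.5 were Plxna2 (0.84, adjusted p 0.00126), Sema3e (−0.72, 0.00335), Sema5a (−0.79, 0.00702), Sema3f (0.34, 0.0179), Dcc (0.42, 0.026) and Nrp2 (−0.35, 0.0418), each given as the log2 difference of closed minus open. Without closed E8.5 replicate 2 the count at E8.5 was 10, and without the 2 open E9.5 arrays of high 3′ signal the count at E9.5 was 8.

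**Figure D1:**
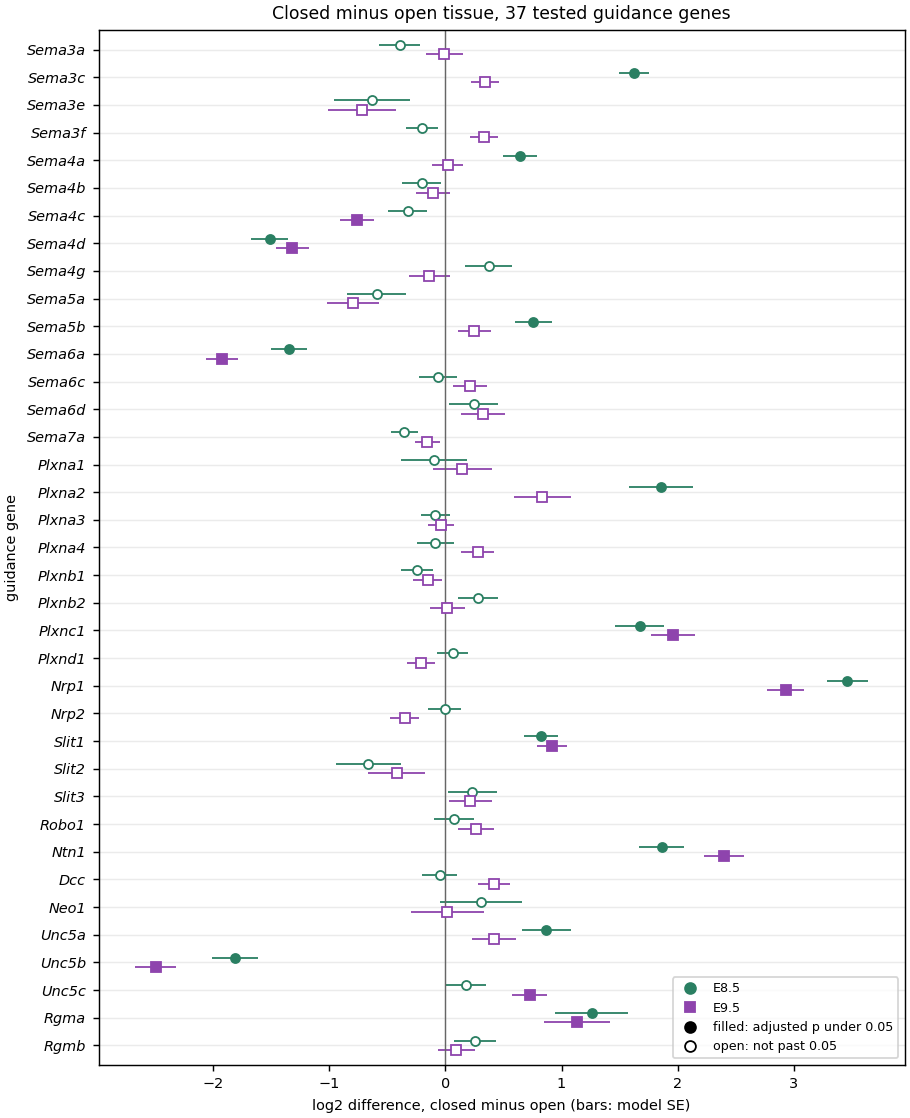
Log2 difference of closed minus open tissue (horizontal axis) for the 37 tested guidance genes (vertical axis) at both stages. Points are differences and bars are the SE of the fit, with filled points at an adjusted p below 0.05. Nrp1 lies furthest to the right at both stages, with 3.46 at E8.5 and 2.93 at E9.5.

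Neuropilin-1 (Nrp1, probe set 1448943_at), the ligand-binding co-receptor of class 3 semaphorins and of VEGF, had the largest regional difference of the tested set at both stages. The open E8.5 arrays read 5.29, 4.93 and 4.88, and the closed E8.5 arrays read 8.67 and 8.31. The open E9.5 arrays read 5.40, 5.52 and 5.66, and the closed E9.5 arrays read 8.69, 8.38 and 8.30. Every closed array was above every open array, and the open values lay close to each other at both stages. The open signal was low: of the probe sets for olfactory and vomeronasal receptors, genes not known for a role in this tissue, 95% read below 4.95, and 2 open E8.5 arrays lay under that level. As measured, Nrp1 was 11-fold higher in closed tissue at E8.5 (log2 difference 3.46, SE 0.18, adjusted p 2.8e-07) and 7.63-fold higher at E9.5 (2.93, SE 0.16, adjusted p 3.7e-07). Neuropilin-2 (Nrp2), which binds an overlapping set of class 3 ligands, was not past the threshold between regions with the probe set used. Its closed minus open difference was −0.01 (SE 0.14, adjusted p 0.998) at E8.5, with a 95% interval of −0.31 to 0.30. At E9.5 the difference was −0.35 (SE 0.13, adjusted p 0.127), and with the mean of all its probe sets it was −0.45 (adjusted p 0.0111), past the threshold.

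Of the plexins, the signalling receptors of semaphorins, 8 of 9 were tested. Plexin C1 (Plxnc1, 1423213_at), a receptor of the membrane-anchored semaphorin 7A, read 7.29, 7.13 and 6.83 on the open E8.5 arrays, 8.82 and 8.70 on the closed E8.5 arrays, 6.13, 6.12 and 5.67 on the open E9.5 arrays, and 8.30, 7.68 and 7.82 on the closed E9.5 arrays. Closed arrays were above open arrays at both stages without overlap. The closed minus open difference was 1.67 (SE 0.21, adjusted p 0.00035) at E8.5 and 1.96 (SE 0.19, adjusted p 3.6e-05) at E9.5.

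Plexin A2 (Plxna2, 1453286_at), a receptor of class 6 semaphorins and, with neuropilins, of class 3, read 5.74, 5.82 and 5.60 on the open E8.5 arrays, 7.26 and 7.89 on the closed E8.5 arrays, 6.01, 5.73 and 5.23 on the open E9.5 arrays, and 6.98, 6.34 and 6.15 on the closed E9.5 arrays. Closed and open arrays did not overlap at either stage, but the gap at E9.5 was narrow. The difference was 1.86 at E8.5 (SE 0.28, adjusted p 0.00127) and 0.84 at E9.5 (SE 0.25, adjusted p 0.0644). The other 6 tested plexins, Plxna1, Plxna3, Plxna4, Plxnb1, Plxnb2 and Plxnd1, were not past the threshold in any comparison with the probe set used. Plxnb3 was near background, with group means from 4.10 to 4.28.

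The stretches just before the RefSeq start sites of 4 genes with marked regional differences are shown because these genes were higher (Nrp1, Plxnc1, Plxna2) or lower (Unc5b) in closed tissue. Each is the 150 bases before the start, 5′ to 3′ on the gene's strand in GRCm38.p6, at chr8:128358923-128359072 (plus strand) for Nrp1, chr10:94944846-94944995 (minus) for Plxnc1, chr1:194619679-194619828 (plus) for Plxna2 and chr10:60831582-60831731 (minus) for Unc5b. Capitals mark the GC box GGGCGG or its complement CCGCCC and, in Plxna2, the GLI core TGGGTGG.
Nrp1: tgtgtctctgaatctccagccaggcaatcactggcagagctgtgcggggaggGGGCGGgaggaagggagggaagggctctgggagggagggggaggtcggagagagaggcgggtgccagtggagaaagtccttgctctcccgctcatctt
Plxnc1: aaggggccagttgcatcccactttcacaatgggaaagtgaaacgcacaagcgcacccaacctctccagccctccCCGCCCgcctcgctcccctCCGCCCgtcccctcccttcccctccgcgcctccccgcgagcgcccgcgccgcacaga
Plxna2: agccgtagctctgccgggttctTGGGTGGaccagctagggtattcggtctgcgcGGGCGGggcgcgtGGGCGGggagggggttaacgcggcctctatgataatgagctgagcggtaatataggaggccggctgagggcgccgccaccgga
Unc5b: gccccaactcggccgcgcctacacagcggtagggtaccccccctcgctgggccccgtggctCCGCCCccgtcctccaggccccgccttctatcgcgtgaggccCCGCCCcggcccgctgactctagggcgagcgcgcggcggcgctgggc
All 4 stretches hold a GC box, whether the gene was higher or lower in closed tissue. RefSeq windows of 300 bases (250 before and 50 after the start) matched 33 of the 42 guidance genes, with 47 windows. Ntn1, Slit1, Sema6a and Rgma, called between regions at both stages, were not among the 33. The GC box was in 68.1% of the 47 windows and in 35.7% of all 32851 windows, on either strand. Over the 250 bases before the start, the median GC content was 64.4% against 52.4%, and the median number of CpG dinucleotides was 15 against 6. The share with TGGGTGG was 12.8% against 9.30%, with the TCF/LEF letters ATCAAAG 2.13% against 3.73%, with the nuclear receptor half-site AGGTCA 12.8% against 16.3%, and with the E-box CAGCTG 12.8% against 16.3%. A match is a run of letters and not evidence of binding.

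Of the secreted class 3 semaphorins, 4 of 5 were tested and 1 differed between regions. Semaphorin 3C (Sema3c, 1429348_at), a ligand of neuropilins with plexins, read 6.50, 6.78 and 6.76 on the open E8.5 arrays, 8.32 and 8.29 on the closed E8.5 arrays, 6.69, 6.62 and 6.76 on the open E9.5 arrays, and 7.15, 6.95 and 6.99 on the closed E9.5 arrays. The closed E8.5 arrays stood well above all others, and the closed E9.5 arrays lay just above the open ones. Sema3c was 3.08-fold higher in closed tissue at E8.5 (1.62, SE 0.13, adjusted p 9.5e-06), while the difference at E9.5 was 0.34 (SE 0.12, adjusted p 0.116).

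Sema3a, a repellent for neuropilin-1-bearing axons, had group means from 9.42 to 9.98. Its difference was −0.39 at E8.5 (SE 0.18, adjusted p 0.322) and −0.01 at E9.5 (SE 0.16). Sema3e, a ligand of plexin D1, differed by −0.63 (SE 0.33, adjusted p 0.446) at E8.5 and −0.72 (SE 0.29, adjusted p 0.196) at E9.5. Sema3f, a ligand of neuropilin-2, differed by −0.20 (SE 0.13) at E8.5 and 0.34 (SE 0.12, adjusted p 0.129) at E9.5, where the arrays of the regions did not overlap. Its probe set may share probes with other transcripts. Sema3d was near background, with group means from 3.87 to 3.96. In RefSeq, Sema3d, Sema3a, Sema3e and Sema3c lie in that order on chromosome 5, with 0, 3 and 15 protein-coding genes between neighbours. With the probe sets used, Sema3c passed the threshold, Sema3a and Sema3e did not, and Sema3d was not tested. Other probe sets of Sema3a and Sema3e were lower in closed tissue at E8.5, as given with the probe set comparison.

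Membrane semaphorins differed in both directions. Of 11 tested, 2 were higher and 2 lower in closed tissue at E8.5, and 3 were lower at E9.5. Semaphorin 4D (Sema4d, 1420824_at), the ligand of plexin B1, read 9.26, 9.10 and 9.28 on the open E8.5 arrays, 7.72 and 7.69 on the closed E8.5 arrays, 9.31, 8.74 and 9.11 on the open E9.5 arrays, and 7.73, 7.68 and 7.79 on the closed E9.5 arrays. All closed arrays lay below all open arrays and within a narrow range. The difference was −1.51 (SE 0.16, adjusted p 7e-05) at E8.5 and −1.32 (SE 0.14, adjusted p 8e-05) at E9.5.

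Semaphorin 6A (Sema6a, 1436458_at), a ligand of plexins A2 and A4, read 8.02, 7.79 and 7.91 on the open E8.5 arrays, 6.49 and 6.64 on the closed E8.5 arrays, 8.38, 7.96 and 7.93 on the open E9.5 arrays, and 6.18, 6.11 and 6.21 on the closed E9.5 arrays. It was again lower in every closed array than in any open array, by 2.54-fold at E8.5 (−1.34, SE 0.15, adjusted p 0.00016) and 3.80-fold at E9.5 (−1.92, SE 0.14, adjusted p 3.3e-06). Sema4c, a ligand of plexin B2, was lower in closed tissue at E9.5 (−0.76, SE 0.15, adjusted p 0.00645), with a mean of 7.61 ± 0.11 in closed and 8.37 ± 0.29 in open tissue (SD, n = 3 each). At E8.5 the difference was −0.33 (SE 0.17, adjusted p 0.427). Without the 2 open E9.5 arrays of high 3′ signal, the E9.5 value was −0.63 (adjusted p 0.0795).

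At E8.5 the closed tissue had more signal for 2 membrane semaphorins, Sema5b (0.76, SE 0.16, adjusted p 0.0115) and Sema4a (0.64, SE 0.15, adjusted p 0.0203). Sema4a lay low, with 3 of its 4 group means between 4.51 and 4.56, within the range of probe sets for olfactory and vomeronasal receptors, of which 95% read below 4.95. Without closed E8.5 replicate 2, Sema4a differed by 0.53 (adjusted p 0.163) and Sema5b by 0.69 (adjusted p 0.0975). Sema4a also missed the threshold without open E8.5 replicate 2 (adjusted p 0.0795) or 3 (adjusted p 0.0506). The other 6 membrane semaphorins, which passed no threshold with the probe sets used, were Sema4b, Sema4g, Sema5a, Sema6c, Sema6d and Sema7a. Sema5a was nearest, with −0.79 at E9.5 (SE 0.22, adjusted p 0.0517).

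**Figure D2:**
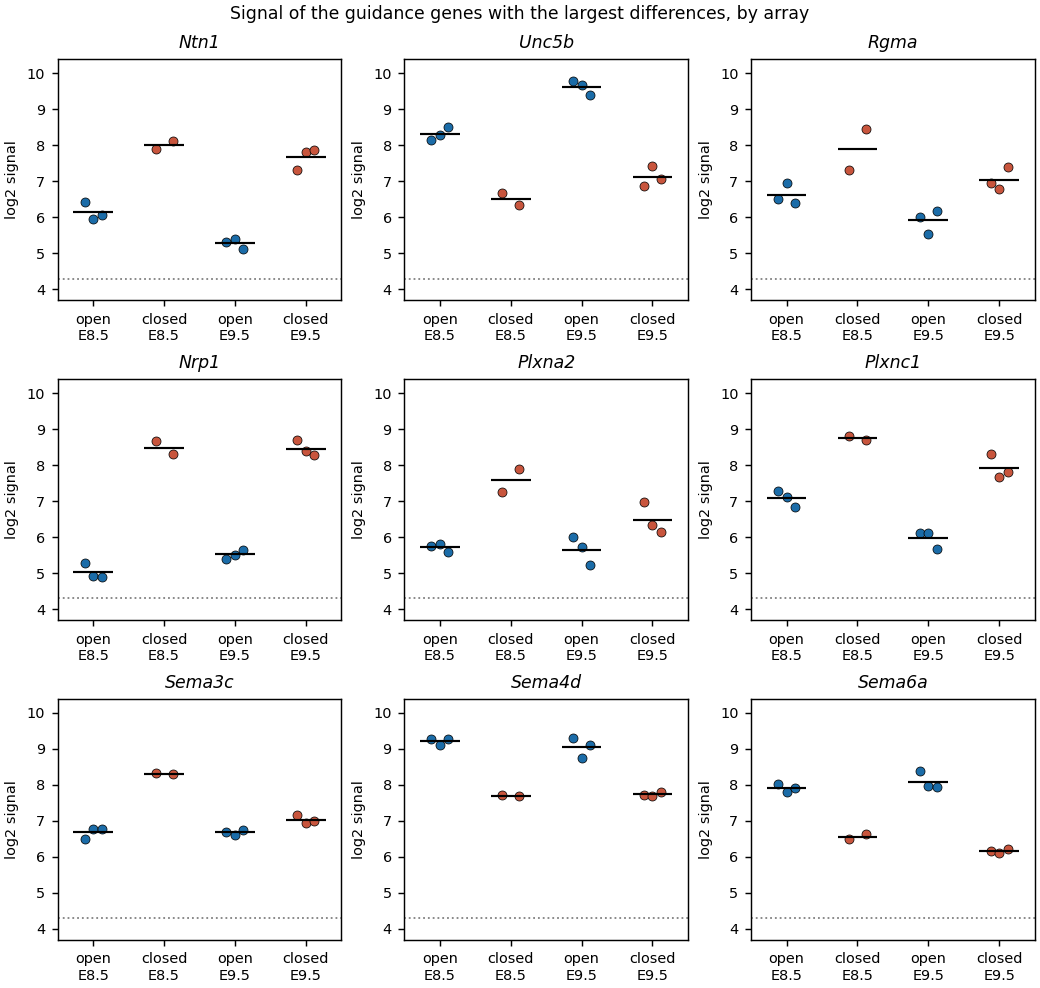
Log2 signal of each array (points) for 9 guidance genes in the 4 groups, with the filter level of 4.30 dotted. Nrp1, Ntn1 and Plxnc1 lie higher in closed tissue, Unc5b, Sema4d and Sema6a lie lower, and Sema3c is high in the 2 closed E8.5 arrays.

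Of the Slits, secreted repellents, 1 of 3 differed. Slit1 was higher in closed tissue at both stages, by 0.83 (SE 0.15, adjusted p 0.00396) at E8.5 and 0.92 (SE 0.13, adjusted p 0.00076) at E9.5. Its arrays read 5.72, 5.52 and 5.62 in open E8.5, 6.37 and 6.52 in closed E8.5, 5.44, 5.61 and 5.29 in open E9.5, and 6.58, 6.20 and 6.31 in closed E9.5 tissue. No closed array fell within the open range. Slit2, made by the floor plate, had a difference of −0.66 (SE 0.28, adjusted p 0.269) at E8.5 and −0.42 (SE 0.25, adjusted p 0.413) at E9.5. Its E9.5 open arrays read 9.87, 9.94 and 8.87, the first 2 being the arrays with the high 3′ minus 5′ signal. Without open E9.5 replicate 3, the low one, the E9.5 difference was −0.77 (adjusted p 0.0102). The E8.5 difference stayed at −0.66 but passed the threshold (adjusted p 0.025). That array enters the E8.5 comparison only through the pooled spread. Slit3 differed by 0.23 (SE 0.21) and 0.22 (SE 0.19).

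Of the Robos, the Slit receptors, only Robo1 was tested, and it differed by 0.07 (SE 0.17) at E8.5 and 0.26 (SE 0.15, adjusted p 0.41) at E9.5. Robo2 and Robo3 were near background. Robo2 read 2.68, 2.93 and 2.92 in open E8.5, 3.83 and 3.39 in closed E8.5, 2.77, 2.89 and 2.95 in open E9.5, and 4.06, 3.57 and 3.31 in closed E9.5 tissue. The closed arrays lay above the open ones in both stages, but all 11 values were below the filter of 4.30. With no filter, Robo2 differed by 0.77 (adjusted p 0.0303) at E8.5 and 0.78 (adjusted p 0.0131) at E9.5.

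Netrin and its receptors differed in both directions, with 2 of 6 tested members higher and 1 lower in closed tissue at each stage. Netrin-1 (Ntn1, 1454974_at), the floor plate's chemoattractant for commissural axons, read 6.42, 5.97 and 6.07 on the open E8.5 arrays, 7.90 and 8.12 on the closed E8.5 arrays, 5.31, 5.40 and 5.12 on the open E9.5 arrays, and 7.33, 7.83 and 7.88 on the closed E9.5 arrays. Closed tissue was above open tissue in every array, and open E9.5 tissue held the lowest values. The difference was 1.86 (3.63-fold, SE 0.19, adjusted p 6.8e-05) at E8.5 and 2.40 (5.28-fold, SE 0.17, adjusted p 3.4e-06) at E9.5. Of 4 tested floor plate markers, Spon1 was higher and Shh lower in closed tissue at E8.5, and Shh, Foxa2 and Spon1 were higher and Foxa1 lower at E9.5. Their summed signal was 2297 to 2806 in open and 2071 to 2366 in closed E8.5 tissue, and 1760 to 2007 in open and 2764 to 3577 in closed E9.5 tissue. The part of floor plate content in the Ntn1 values was not tested.

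The UNC5 receptor Unc5b (1435110_at) showed the reverse of netrin-1. It read 8.15, 8.30 and 8.52 on the open E8.5 arrays, 6.68 and 6.34 on the closed E8.5 arrays, 9.80, 9.67 and 9.40 on the open E9.5 arrays, and 6.87, 7.44 and 7.07 on the closed E9.5 arrays. All open arrays were above all closed ones, with open E9.5 highest. Closed tissue was 3.51-fold lower at E8.5 (−1.81, SE 0.20, adjusted p 9.8e-05) and 5.63-fold lower at E9.5 (−2.49, SE 0.18, adjusted p 3e-06).

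Unc5a was higher in closed tissue at E8.5 (0.87, SE 0.21, adjusted p 0.027) and differed by 0.42 (SE 0.19, adjusted p 0.257) at E9.5. Without closed E8.5 replicate 2 the E8.5 value was 0.45 (adjusted p 0.25), and leaving out open E8.5 replicate 1, 2 or 3 gave adjusted p-values of 0.0605, 0.092 and 0.0818. Unc5c was higher in closed tissue at E9.5 (0.73, SE 0.15, adjusted p 0.0103) and differed by 0.18 (SE 0.17, adjusted p 0.83) at E8.5. The interaction of region and stage was −0.45 (adjusted p 0.676) for Unc5a and 0.55 (adjusted p 0.453) for Unc5c. A difference between the stages was thus not shown in this fit. With the 3′ minus 5′ signal as a covariate, the Unc5c interaction was 0.85 (adjusted p 0.0237), past the threshold. Unc5d was near background and not tested. Dcc, the attractive netrin receptor, differed by −0.05 (SE 0.15) at E8.5 and 0.42 (SE 0.13, adjusted p 0.087) at E9.5, and neogenin (Neo1) by 0.30 (SE 0.35) and 0.02 (SE 0.31). The Neo1 probe set may also share probes with other transcripts.

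Rgma (1438241_at), a repulsive ligand of neogenin, read 6.52, 6.97 and 6.40 on the open E8.5 arrays, 7.33 and 8.45 on the closed E8.5 arrays, 6.03, 5.55 and 6.18 on the open E9.5 arrays, and 6.96, 6.79 and 7.40 on the closed E9.5 arrays. The regions did not overlap within a stage, but the 2 closed E8.5 arrays were over 1 log2 unit apart. Rgma was higher in closed tissue by 1.26 (SE 0.32, adjusted p 0.0323) at E8.5 and 1.13 (SE 0.28, adjusted p 0.027) at E9.5. Without closed E8.5 replicate 2 the E8.5 difference was 0.70 (adjusted p 0.312), and when replicates 1 and 2 of open E9.5 were both left out the E9.5 difference was 0.87 (adjusted p 0.336). Leaving out open E8.5 replicate 1 or 3, open E9.5 replicate 1 or closed E9.5 replicate 1 gave adjusted p-values of 0.105, 0.125, 0.0505 and 0.0528 at E8.5. Leaving out open E9.5 replicate 1 or 2, or closed E9.5 replicate 1 or 3, gave 0.0699, 0.11, 0.0674 and 0.118 at E9.5. Rgmb differed by 0.26 (SE 0.18) and 0.10 (SE 0.16). Of the 37 tested genes, 10 differed by at least 0.5 between the 2 closed E8.5 arrays, and 6 of these were higher in replicate 2.

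Markers of several cell types differed between regions. Of 9 tested neuron markers, Elavl4 was higher and Stmn2 lower in closed tissue at E8.5. At E9.5, Elavl3 and Elavl4 were higher and Nefm was lower in closed tissue. Of 7 neural progenitor markers, 5 were higher in closed tissue at each stage, with summed signals of 4581 to 4873 in open and 8204 to 8814 in closed E8.5 tissue and of 3746 to 4671 and 7791 to 7820 at E9.5. Of 6 neural crest markers, 4 (Foxd3, Tfap2b, Ets1 and Ednrb) were higher in closed tissue at both stages. Their list's summed signal was 210 to 259 in open and 1262 to 1392 in closed E8.5 tissue, and 220 to 310 in open and 1339 to 1475 in closed E9.5 tissue. The sum for 7 presomitic mesoderm markers went the other way, from 1622 to 2078 in open and 346 to 365 in closed E8.5 tissue, and 1046 to 1723 in open and 403 to 434 in closed E9.5 tissue. Of 7 tested surface ectoderm markers, Tfap2c was higher and Krt8, Krt18 and Grhl3 were lower in closed tissue at E8.5, and Tfap2c was higher and Epcam and Grhl3 were lower at E9.5. The list of 8 summed to 1445 to 1784 in open and 1159 to 1457 in closed E8.5 tissue, and to 995 to 1132 and 1034 to 1391 at E9.5. Of 2 tested notochord markers, Chrd was lower in closed tissue at E8.5 (−0.72, adjusted p 0.00593), and the list summed to between 92.9 and 136 on every array. Of 7 endothelial markers, 5 were near background in every group, and the list summed to between 270 and 375 on every array. The part of these cells in the guidance gene values was not tested, and in bulk tissue fewer cells of a type and less RNA per cell cannot be told apart.

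More than 1 probe set per gene gave a check on the regional calls. Of the 13 genes called at E8.5, 9 had further probe sets past the filter, 13 in all. Of these 13, 11 had the same sign and 6 were called in the same direction. The support was uneven. For Nrp1 the other probe sets differed by 3.54, 2.53 and 0.65 at E8.5, for Plxnc1 by 1.88, for Plxna2 by 1.67 and 2.18, and for Slit1 by 1.46. At E9.5 those 2 Plxna2 probe sets differed by 0.99 (adjusted p 0.0447) and 1.13 (adjusted p 0.00442), both past the threshold. For Sema4d, Sema6a and Ntn1 the further probe sets did not pass the threshold at either stage. At E8.5 they differed by 0.00 for Sema4d, −0.12 and −0.54 for Sema6a, and −0.03 for Ntn1. At E9.5 they differed by −0.05 for Sema4d, −0.14 and −0.27 for Sema6a, and 0.31 for Ntn1. Their mean signals were 5.15 for Sema4d, 5.87 and 4.46 for Sema6a, and 4.40 for Ntn1. The probe sets used had means of 8.49, 7.24 and 6.67. The further Ntn1 probe set and the second of Sema6a lay below 4.95, the level of the olfactory and vomeronasal receptors, so they are a weak check. The further Sema5b probe set differed by 0.18 at E8.5. The second Unc5b probe set differed by −0.58 (adjusted p 0.2) at E8.5 and −0.79 (adjusted p 0.0269) at E9.5. Probe sets that were not the one used also passed where the gene had not. At E8.5 closed tissue was lower for 1 further probe set of Sema3a (−0.75, adjusted p 0.00447) and 2 of Sema3e (−0.79, adjusted p 0.0242, and −0.69, adjusted p 0.044). At E9.5 it was lower for 1 of Nrp2 (−0.65, adjusted p 0.00802) and 1 of Sema5a (−0.87, adjusted p 0.00539). Between stages in open tissue, 1 probe set of Plxnb1 rose by 0.48 (adjusted p 0.0352) and 1 of Sema5a by 0.87 (adjusted p 0.00939). In closed tissue, 1 of Sema3a rose by 0.63 (adjusted p 0.0379) and 1 of Plxna2 fell by 1.31 (adjusted p 0.0124). The transcript parts these probe sets cover were not examined here.

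**Figure D3:**
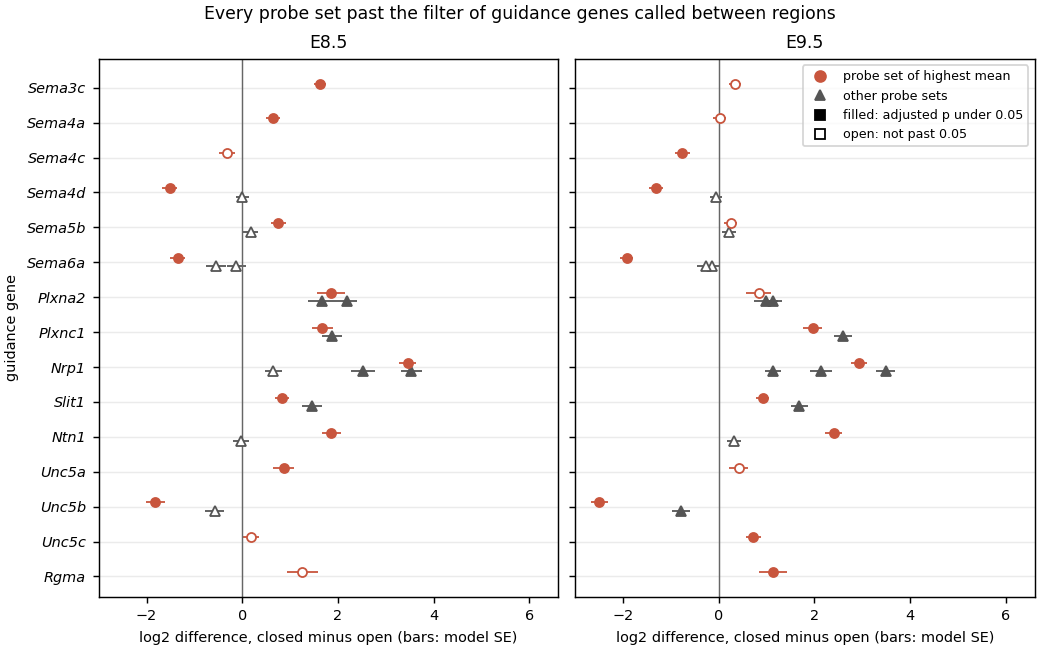
Log2 difference of closed minus open tissue (horizontal axes) for every probe set past the filter of the guidance genes called between regions, at E8.5 (left) and E9.5 (right), with SE bars. This is a separate fit adjusted over all one-gene probe sets past the filter, in which Rgma at E8.5 does not pass the threshold. The further probe sets of Nrp1 and Plxnc1 lie on the same side as the chosen one. That of Sema4d lies near 0 at both stages, and that of Ntn1 lies at −0.03 at E8.5 and 0.31 at E9.5.

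Between stages, fewer guidance genes differed. In open tissue 5 of 37 changed from E8.5 to E9.5, or 13.5% against 5.02% of all genes, 3 rising and 2 falling (3.61% and 1.42% of all genes). Unc5b rose by 1.30 (2.46-fold, SE 0.18, adjusted p 0.0012), Sema4c by 0.64 (SE 0.15, adjusted p 0.0294) and Nrp2 by 0.55 (SE 0.13, adjusted p 0.0269). Plxnc1 fell by 1.11 (2.16-fold, SE 0.19, adjusted p 0.0048) and Ntn1 fell by 0.87 (1.83-fold, SE 0.17, adjusted p 0.0122). The regional and stage comparisons share arrays. Without open E9.5 replicates 1 and 2, 1 of the 5 calls (Plxnc1) was left, Unc5b differed by 1.07 (adjusted p 0.081) and Ntn1 by −1.03 (adjusted p 0.107). Ntn1 also missed the threshold without open E8.5 replicate 1 (−0.74, adjusted p 0.0667). Nrp2 missed it without any 1 of the open E8.5 arrays or without open E9.5 replicate 1 or 2 (adjusted p 0.0529 to 0.118). Sema4c missed it without open E8.5 replicate 1 or 3, open E9.5 replicate 2 or closed E9.5 replicate 2 (adjusted p 0.05005 to 0.123). Blood markers rose between stages beside these values. Of 4 tested, 3 were higher at E9.5 in open tissue, and the list's summed signal was 188 to 743 at E8.5 and 4945 to 7217 at E9.5 in open tissue, and 756 to 873 and 2246 to 5742 in closed tissue. The floor plate marker Shh, expressed with Ntn1 in the floor plate, also fell in open tissue (−0.65, SE 0.13, adjusted p 0.0114), 1 of 4 tested markers of that list, whose sums are given above with Ntn1. The part of blood or floor plate cells in the guidance gene values was not tested.

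In closed tissue 1 of 37 changed, Sema3c, or 2.7% against 2.42% of all genes. Sema3c fell by 1.28 (2.42-fold, SE 0.13, adjusted p 0.00025). Plxnc1 and Plxna2 differed by −0.82 (adjusted p 0.0788) and −1.08 (adjusted p 0.0782) in closed tissue. Slit2 differed by 0.80 (SE 0.25, adjusted p 0.102) in open and 1.04 (SE 0.28, adjusted p 0.0904) in closed tissue. Its E8.5 arrays read 8.90, 8.66 and 8.71 in open and 8.34 and 7.84 in closed tissue, and its closed E9.5 arrays read 9.28, 9.14 and 8.98. Without open E9.5 replicate 3, Slit2 passed in open (1.15, adjusted p 0.00142) and in closed tissue (adjusted p 0.00423). Plxna2 (adjusted p 0.0376) and Plxnc1 (adjusted p 0.0437) then passed in closed tissue. The differences in closed tissue were unchanged, as that array enters their test only through the pooled spread. With the 3′ minus 5′ signal as a covariate the closed difference for Slit2 was 1.09 (adjusted p 2.16e-05), and 8 guidance genes passed the threshold in place of 1. The share of all genes that passed with this covariate is not given here.

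**Figure D4:**
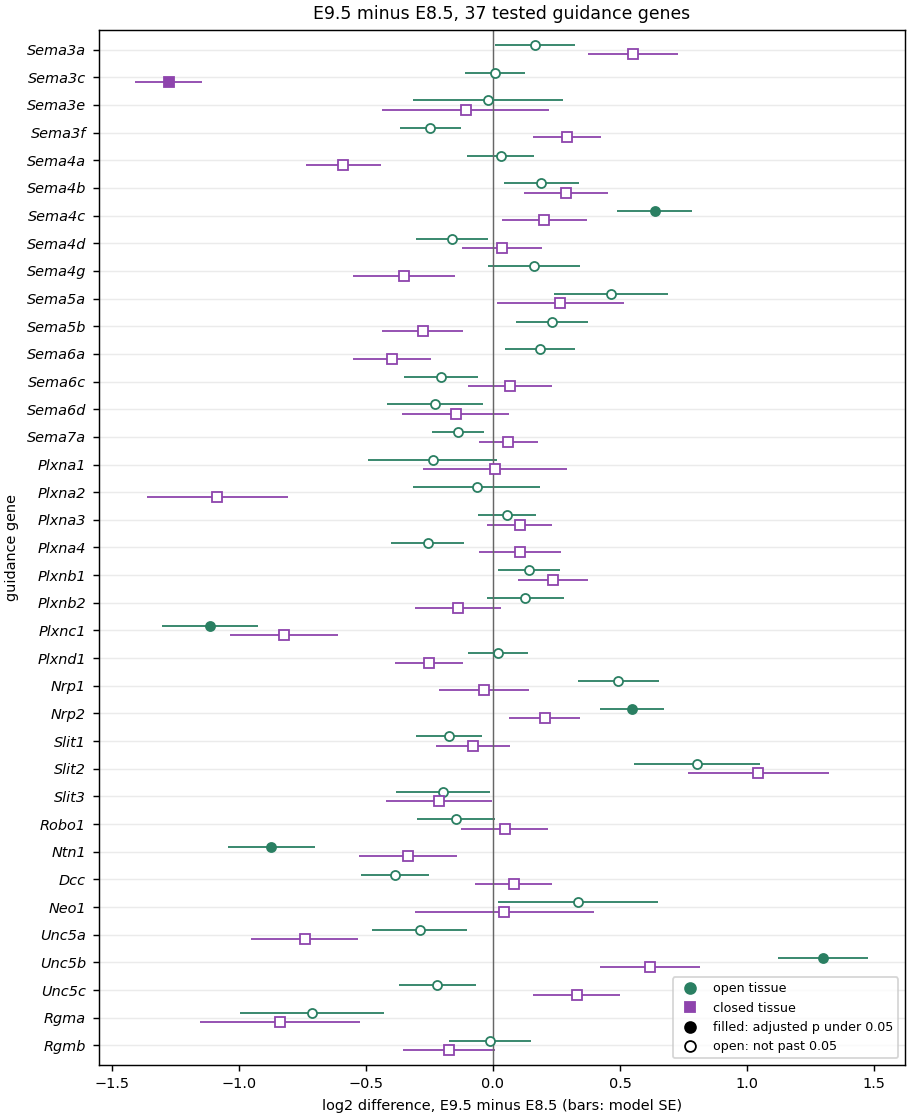
Log2 difference of E9.5 minus E8.5 (horizontal axis) for the 37 tested guidance genes (vertical axis) in open (circles) and closed (squares) tissue, with SE bars and filled symbols at an adjusted p below 0.05. Sema3c is the one filled square, and Unc5b, Plxnc1, Ntn1, Sema4c and Nrp2 are the filled circles.

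A change that differed between regions was tested as an interaction of region and stage. One of 37 genes passed, Sema3c, or 2.7% against 1.25% of all genes. Its closed minus open difference was smaller by 1.28 on the log2 scale at E9.5 than at E8.5 (SE 0.18, adjusted p 0.004). No other guidance gene passed this test. The estimates were −1.02 for Plxna2 (SE 0.37, adjusted p 0.356), −0.68 for Unc5b (SE 0.26, adjusted p 0.4), −0.53 for Nrp1 (SE 0.24, adjusted p 0.514) and 0.54 for Ntn1 (SE 0.26, adjusted p 0.552). With the block for replicate numbers within a stage, 3 genes passed, Plxna2 (−0.96, adjusted p 0.0354) and Sema3f (0.60, adjusted p 0.0321) beside Sema3c. With the 3′ minus 5′ signal as a covariate, Slit2 (0.83, adjusted p 0.0142) and Unc5c (0.85, adjusted p 0.0237) passed beside Sema3c.

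Genes that work with these receptors were counted from lists outside the set. Of 13 tested co-receptors and surface partners, 5 differed at E8.5, 4 higher and 1 lower in closed tissue, or 38.5% against 7.17% of all genes. Nrcam, a cell adhesion molecule that pairs with neuropilins, was higher by 3.48 (adjusted p 2.12e-06), and Ptk7, a pseudokinase of planar polarity, was lower (−1.47, adjusted p 0.000687). At E9.5 the count was again 4 higher and 1 lower, against 8.54% of all genes. Of 12 further ligands and receptors tested, 2 (16.7%) differed at E8.5, Draxin (2.34, adjusted p 2.84e-05), a secreted netrin and DCC partner, and Flrt3 (1.03). At E9.5 Draxin was higher by 1.78 and Flrt2 differed by −0.55. Of 44 tested intracellular transducers, 1 differed at E8.5, or 2.27% against 7.17% of all genes. This was Srgap3, a Slit-Robo GTPase-activating protein, with 1.21 (adjusted p 0.0004), and at E9.5 it was higher by 2.13 (adjusted p 1.57e-06). At E9.5, 3 of the 44 transducers differed, or 6.82% against 8.54% of all genes, a share near that of all genes. Met, a plexin B partner, fell by 1.82 in closed tissue between stages (adjusted p 0.000255).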

How the data were processed

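RNA of 11 samples in 4 groups was measured, 1 Affymetrix array each, per the labels. The deposited values are log2 signals per probe set, from 2.37 to 14.7, with the scale read from the values. Per the submitters' processing notes MAS5 was used; its role is not given, and neither is any background correction or normalization, in the sources used here. Detection calls were not used here. Per the labels' protocols, 50 ng of RNA was carried through 2 labelling cycles, with oligo-dT priming.

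Of 45101 probe sets, 34945 were assigned to 1 symbol, 932 to several, 9160 to none, and 64 were controls. The probe set of highest mean represented each gene, and genes with a mean of at least 4.30 were tested. Group means of the 11 arrays were fitted with limma 3.58.1 in R 4.3.3 (empirical Bayes with a trend, 7 residual degrees of freedom). The script was tested on simulated data. Members, lists and tests were chosen with earlier results of these data known. Values of every array are given for genes past the threshold with a log2 difference of at least 1, or past it for the interaction; Slit1, Slit2 and Robo2 were added after their values were seen. Of the outside lists, up to 2 genes of smallest p in each direction per comparison were named. Same-numbered open and closed arrays deviated together over the tested genes (correlations 0.576 and 0.697 at E8.5, 0.308, 0.341 and 0.687 at E9.5), so a block by number within a stage was fitted as an alternative. Some unlike-numbered arrays did so too: open 3 with closed 1 at E8.5 (0.309). At E9.5 these were open 1 with closed 2 (0.264) and open 2 with closed 1 (0.317). The remaining unlike-numbered correlations within a stage were negative. With 2 closed arrays at E8.5, their deviations are exact opposites. Across stages the numbers did not pair. Replicates are labelled as biological and pooled by litter.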

Additional observations from a re-analysis of the deposited data

Results flagged for a closer look

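The difference of Sema3c between closed and open tissue itself differed between the stages. It was the one guidance gene past this test in the fit without a block or covariate. With the block within a stage, Plxna2 (−0.96, adjusted p 0.0354) and Sema3f (0.60, adjusted p 0.0321) passed too. With the 3′ minus 5′ signal as a covariate, Slit2 (0.83, adjusted p 0.0142) and Unc5c (0.85, adjusted p 0.0237) passed too. The closed minus open difference was 1.62 at E8.5 and 0.34 at E9.5, and the interaction of region and stage was −1.28 (SE 0.18, adjusted p 0.004 by limma over all genes tested). The closed E8.5 mean was 8.31 ± 0.02 (SD, n = 2), the closed E9.5 mean 7.03 ± 0.11 (SD, n = 3), and the open means were 6.68 ± 0.16 and 6.69 ± 0.07 (SD, n = 3 each). With closed E8.5 replicate 2 left out, the array with the high somite marker signal, the interaction was −1.30 (adjusted p 0.0183).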

How the results depend on the processing

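Across 24 alternative settings, where each could be computed, the 30 called values of guidance genes gave 711 alternative values, of which 671 held their direction and side of the threshold, 40 held their direction but missed the threshold and 0 reversed, and 20 of the 30 called values held under every alternative. The counts of guidance genes past the threshold that moved by over 1.5 times are as follows. They stand without the share of all genes under the same setting, so a rise is not shown to be particular to guidance genes. At E9.5 between regions the 10 became 19 with array weights and 16 with the replicate block within a stage. Open E9.5 replicate 1, an array of high 3′ signal, had a weight of 6.29, against 0.74 for replicate 2 and 0.31 for replicate 3. Between stages in open tissue the 5 became 12 with array weights and 1 without open E9.5 replicates 1 and 2. Between stages in closed tissue the 1 became 2 with the mean of all probe sets, 2 with a replicate block across stages, 8 with the 3′ minus 5′ covariate and 3 without open E9.5 replicates 1 and 2. For the interaction the 1 became 3 with the replicate block within a stage and 3 with the 3′ minus 5′ covariate. Leaving out each array in turn gave 10 to 14 genes at E8.5 and 9 to 12 at E9.5 between regions, 2 to 6 in open tissue and 1 to 4 in closed tissue between stages, and 1 throughout for the interaction. In open tissue the count was 2 when open E8.5 replicate 1 was left out, and 3 when open E8.5 replicate 3 or open E9.5 replicate 2 was. In closed tissue it was 4 when closed E8.5 replicate 1 or open E9.5 replicate 3 was left out, 3 for closed E9.5 replicate 1 and 2 for open E9.5 replicate 2. The cause was not tested. The block within a stage lost no call of the regional and interaction tests. With 2 closed arrays at E8.5, the number of arrays limits the precision, and genes near background have no reliable order.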

Other observations

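Some neuron markers were lower at the later stage. Of 9 tested, 3 fell in open tissue (Stmn2, Nefl and Nefm) and 4 fell in closed tissue (the same 3 and Gap43). Of all genes, 1.42% fell in open tissue, and 2.42% changed in either direction in closed tissue. The other 6 and 5 neuron markers were not past the threshold. The median difference of the 9 was −0.32 in open and 0.08 in closed tissue. The summed signal of the 10 neuron markers with a probe set was 1582 to 1791 at E8.5 and 748 to 961 at E9.5 in open tissue, and 1284 to 1376 and 663 to 821 in closed tissue. Stmn2, a microtubule regulator of growing axons, fell by 1.98 (SE 0.24, adjusted p 0.000537, limma) in open and by 1.42 (SE 0.27, adjusted p 0.0162) in closed tissue. Nefl, a neurofilament subunit, fell by 1.57 (SE 0.16) and 1.77 (SE 0.18). Crmp1, a mediator of semaphorin 3A signals, fell by 0.58 (adjusted p 0.0278) in open and by 0.70 (adjusted p 0.0322) in closed tissue.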
